A study of Homo sapiens with 6 samples.

Results

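Lysosomal hydrolases, the proteins that work with them and proteins of the lysosomal membrane were described in MDA-MB-231 cells, a human breast adenocarcinoma line, without irradiation and 24 h after 10 Gy. The members are 41 protein-coding genes listed by symbol, each found as 1 row among the 58735 genes of the expression table. They comprise 6 membrane proteins, 7 cathepsins and other peptidases, 11 glycosidases, 4 sulfatases, 6 genes of lipid handling, progranulin and 6 genes of the vacuolar proton pump (V-ATPase).

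The study sequenced polyA-enriched RNA from 3 libraries at 0 Gy and 3 libraries collected 24 h after 10 Gy of gamma rays from a caesium irradiator. Every library carries the genotype label WT and a sample name beginning with SCR, the name that the study's paper uses for cells with a non-targeting short hairpin RNA (shSCR). All 6 came from this 1 line, and the labels do not say whether the 3 libraries of a dose were separate cultures. The p-values therefore measure the spread between these libraries, which may be technical.

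Lysosomes are acidic organelles in which proteins, glycans, lipids and nucleic acids are broken down by hydrolases. The V-ATPase acidifies them, most soluble hydrolases reach them through mannose-6-phosphate receptors, and heavily glycosylated membrane proteins such as LAMP1 line their limiting membrane. Transcription factors of the TFEB and TFE3 family bind palindromic sites around CACGTG in many lysosomal promoters, and in breast cancer cells part of the cathepsin pool is known to be secreted.

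Values are fragments per kilobase of gene length, scaled to a depth for each library (FPKM). Between 15643641 and 28861781 reads per library were recovered from them, and each of the 41 members had between 121 and 26245 reads in every library. The depth implied by the values was 0.973, 0.983 and 0.991 times the recovered reads in control libraries 1, 2 and 3. At 10 Gy it was 1.036, 1.039 and 1.028 times, and the reason for this difference between doses was not tested. On log2(FPKM + 1), correlations were 0.992 to 0.994 within a dose and did not exceed 0.989 between doses. The FPKM values summed to between 269611 and 278380 at 0 Gy and to between 246920 and 254918 at 10 Gy, so 4 other scalings or inputs were set beside the deposited values. They were upper-quartile scaling, which divides each library by the upper quartile of its genes above 0, median-of-ratios scaling, a rescaling of each library to the same FPKM sum (TPM), and limma-voom on the recovered reads. Genes above 0 numbered between 22169 and 23975 at 0 Gy and between 24876 and 26496 at 10 Gy. Upper-quartile scaling thus took its quartile over more genes in every irradiated library than in any control. What this did to the scaling was not tested. Unless another scaling is named, a result is on the deposited values. The line's defining transcripts VIM, KRT18, CD44 and EGFR stood at 301, 109, 78.6 and 29.8 FPKM at 0 Gy, and ESR1, PGR and CDH1 were under 1 FPKM. The 11 markers of leukocytes, endothelium, fibroblasts and adipocytes summed to between 6.23 and 7.47 FPKM at 0 Gy and to between 8.93 and 9.73 FPKM at 10 Gy, with CD3E and ADIPOQ at 0 in every library. Only CD14, PECAM1 and COL1A1 among them averaged 1 FPKM or more, and their part in the results below was not tested.

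Promoter windows are shown first for 4 members, since they hold the sequence that the TFEB family is known for and their transcripts moved in different directions after 10 Gy. GAA and NEU1 rose, and CTSD fell (though it was not called lower with upper-quartile scaling or TPM, explained below). MCOLN1 did not pass the test on the deposited values, but was called higher with upper-quartile scaling, TPM and limma-voom. Each window runs from 250 bases before to 50 bases after the first start listed by RefSeq on GRCh38.p14. It is printed 5′ to 3′ in the direction of the gene, and capitals mark CACGTG, its 8-base form TCACGTGA or, where TCACGTGA is preceded by G and followed by C, the 10-base form.
GAA, chr17:80101331-80101630, plus strand: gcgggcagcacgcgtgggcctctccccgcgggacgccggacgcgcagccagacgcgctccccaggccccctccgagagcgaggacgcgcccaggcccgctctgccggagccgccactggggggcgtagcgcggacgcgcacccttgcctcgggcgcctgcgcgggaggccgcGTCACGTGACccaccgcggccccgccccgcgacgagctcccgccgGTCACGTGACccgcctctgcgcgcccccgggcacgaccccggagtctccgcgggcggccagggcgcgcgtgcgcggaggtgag
NEU1, chr6:31862772-31863071, minus strand: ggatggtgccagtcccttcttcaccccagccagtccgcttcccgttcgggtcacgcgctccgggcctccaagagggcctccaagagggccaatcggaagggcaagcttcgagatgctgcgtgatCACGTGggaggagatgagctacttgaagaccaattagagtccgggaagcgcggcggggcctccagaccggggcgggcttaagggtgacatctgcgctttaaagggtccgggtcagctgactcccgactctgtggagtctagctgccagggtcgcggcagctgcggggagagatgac
CTSD, chr11:1763878-1764177, minus strand: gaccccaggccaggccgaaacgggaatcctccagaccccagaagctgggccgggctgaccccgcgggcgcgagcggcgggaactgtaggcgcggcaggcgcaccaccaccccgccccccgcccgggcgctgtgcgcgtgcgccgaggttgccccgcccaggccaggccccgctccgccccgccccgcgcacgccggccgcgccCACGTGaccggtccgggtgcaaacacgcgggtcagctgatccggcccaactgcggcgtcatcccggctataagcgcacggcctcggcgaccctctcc
MCOLN1, chr19:7522374-7522673, plus strand: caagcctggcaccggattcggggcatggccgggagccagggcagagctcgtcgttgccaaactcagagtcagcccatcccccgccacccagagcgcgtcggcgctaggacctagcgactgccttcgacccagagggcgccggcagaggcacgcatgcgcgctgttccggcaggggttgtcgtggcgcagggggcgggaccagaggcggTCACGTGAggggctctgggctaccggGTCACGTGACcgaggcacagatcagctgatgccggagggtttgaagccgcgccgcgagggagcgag

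GAA holds 2 copies of the 10-base form, whose CACGTG cores begin 76 and 31 bases before the start. MCOLN1, the lysosomal calcium channel mucolipin 1, holds 1 copy of the 10-base form and 1 of the 8-base form. NEU1 and CTSD hold a single CACGTG, each without the full flanks of the 8-base form.

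Windows were at hand for 30 of the 41 members. CACGTG, which reads the same on both strands, was found in 9 of them (30%): GAA, NEU1, CD63, CTSD, ATP6V0B, LAMP1, MCOLN1, CTSA and ATP6V0D1. It was found in 7.44% of 27305 windows of all genes and in 10.5% of the 8650 windows of genes that were tested for a change. TCACGTGA, which contains CACGTG, was found in 5 member windows (16.7%) against 1.04% of all windows and 2.09% of those of tested genes. The 10-base form, which contains both, was found only in the windows of GAA and MCOLN1 (6.67%) against 0.381% of all windows and 0.821% of those of tested genes. LAMP1 held 6 copies of CACGTG. These are descriptions of letters in a window, and a window without them says only that they are not there.

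CACGTG occurred among members of either direction after 10 Gy. It was present in 2 of the 7 members that rose, 3 of the 6 that fell and 4 of the 17 others with a window. The 3 windows of fallers that held it were those of CD63, CTSD and ATP6V0B, and none of the 3 held the 8-base form.

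At 0 Gy the members spanned a wide range of levels per length. PSAP, the precursor of the saposins that present sphingolipids to their hydrolases, had 287, 266 and 254 FPKM in control libraries 1, 2 and 3. CD63, a tetraspanin of lysosomes and exosomes, followed with 199.5, 182 and 180.4 FPKM. The 2 genes did not overlap, whereas the next 2 did: CTSD (cathepsin D, an aspartic protease) ranged from 117 to 139 FPKM and CTSZ (cathepsin Z, a carboxypeptidase) from 106 to 118 FPKM. These 4 genes with GRN at 97.0 ± 7.37 FPKM (SD, n = 3) made up between 54.5% and 55.9% of the members' summed FPKM in the control libraries.

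At the other end, MANBA (beta-mannosidase) stood at 0.803, 0.781 and 0.794 FPKM and was the only member under 1 FPKM. HEXA (the alpha subunit of beta-hexosaminidase) averaged 2.26 FPKM, IDUA (alpha-L-iduronidase) 2.34 FPKM and ARSA (arylsulfatase A) 2.57 FPKM. The median control level of the 40 members tested was 15.7 FPKM, against 7.11 FPKM for the 12128 tested genes.

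The gene length behind these values counts every annotated exon base, which lowers genes with many long alternative exons. With the length of each gene's principal transcript instead, a choice made after the values were seen, CD63 (461) stood above PSAP (303) on the resulting scale per kilobase. CTSC moved from place 28 to 12, SCARB2 from 32 to 20 and ASAH1 from 36 to 24, while CTSD, CTSZ, GRN, CTSB and LAMP1 kept places 3 to 7. All differences between doses were computed with the deposited length, and another length would also shift values on the log2(FPKM + 1) scale.

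**Figure D1:**
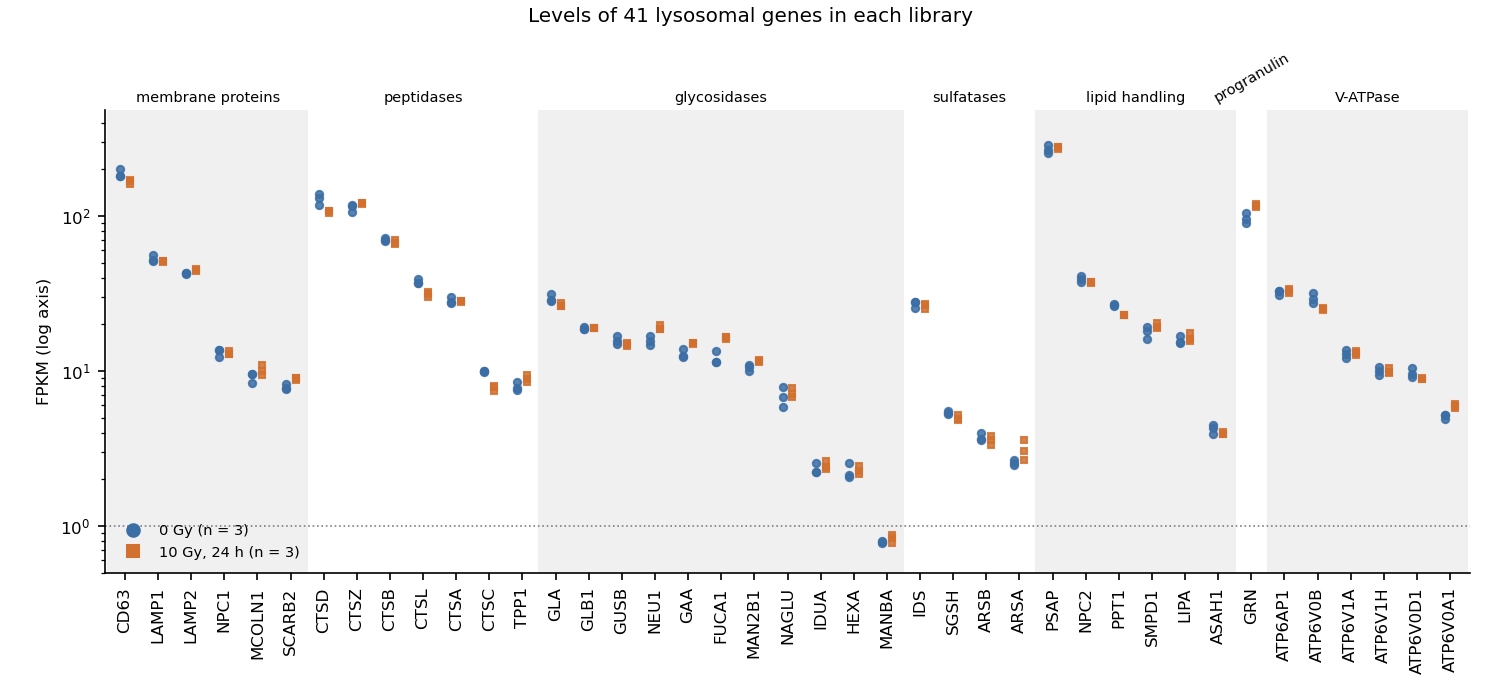
FPKM of the 41 members in each library on a log axis, grouped by role and ordered by the mean at 0 Gy. Circles are the 3 libraries at 0 Gy and squares the 3 libraries at 10 Gy, and the dotted line marks 1 FPKM. PSAP is highest and MANBA lowest at both doses, and the range across the 41 genes is far larger than the difference of any gene between doses. Genes close in level can change order between doses, as the means of CTSD and CTSZ do.

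After 10 Gy the members moved in both directions and by small amounts. Of the 41 members, 40 reached a mean of 1 FPKM and were tested with limma on log2(FPKM + 1), and 13 (32.5%) had a Benjamini-Hochberg adjusted p under 0.05, against 35.6% of all tested genes. The 7 members that rose were FUCA1, GRN, NEU1, GAA, ATP6V0A1, SCARB2 and MAN2B1, against a background of 11.9% of genes called higher. The 6 that fell were CTSC, CTSD, CTSL, ATP6V0B, PPT1 and CD63, against a background of 23.7% called lower, and of these CD63, PPT1 and ATP6V0B lay above 0 with upper-quartile scaling. FUCA1 alone passed the test with a change of at least 1.3-fold, and 5.77% of tested genes met both conditions. The 3 libraries of one dose did not overlap those of the other for 21 of the 40 members, 10 higher and 11 lower, against 51.9% of tested genes. On the deposited values the share of members called was near the background, with 17.5% of members called higher and 15% lower. In bulk RNA, fewer cells with a transcript and less transcript per cell cannot be told apart.

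The balance of rises and falls depended on the scaling between libraries. The median member differed by 0.01 on the log2 scale and the median tested gene by -0.04, and 25 of the 40 members lay above the median gene. With upper-quartile scaling the median gene moved up by 0.22, and 20 members were called higher and 0 lower. With TPM it moved up by 0.12, and 18 members were called higher and 2 lower. Among all genes, the share of calls that were higher was 33.4% as deposited, 97.0% with upper-quartile scaling and 74.5% with TPM. With limma-voom on the recovered reads, 16 members were called higher and 5 lower, and with median-of-ratios scaling 7 and 6. The share of members called was then 50% against 33.4% of genes with upper-quartile scaling, 50% against 34.5% with TPM, 52.5% against 39.0% with limma-voom, and 32.5% against 35.0% with median-of-ratios scaling.

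A further 9 members were called higher with upper-quartile scaling, TPM and limma-voom but not on the deposited values. They were LAMP2, MCOLN1, CTSZ, TPP1, ARSA, SMPD1, LIPA, PSAP and ATP6AP1. TPM added CTSA and GLB1 to them, and upper-quartile scaling added GLB1, NAGLU, ATP6V1A and ATP6V1H. The sign differed from the deposited values for 17 of the 40 members with upper-quartile scaling and 13 with TPM. It differed for 9 with limma-voom and for 1 (GLB1) with median-of-ratios scaling. The 17 included CD63, PPT1 and ATP6V0B, called lower on the deposited values with log2 differences of -0.17, -0.21 and -0.22. The direction of these members thus depends on the scale.

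All 7 members that rose were called higher under each of the 4 other scalings or inputs too, but each of these moved the median gene up and none moved it down. FUCA1 lay between 0.44 and 0.49 above the median gene under the 5 settings. Of the 6 that fell, none was called lower under all 4. Upper-quartile scaling ended all 6 calls, and with it 1.01% of all genes were called lower, against 23.7% as deposited. This scaling left CTSC at -0.08, CTSL and CTSD at -0.01 and -0.01, ATP6V0B at 0.03, PPT1 at 0.04 and CD63 at 0.09. All 6 lay below the median gene under each of the 5 settings, CTSC by between 0.26 and 0.30 and CD63 by between 0.09 and 0.13.

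**Figure D2:**
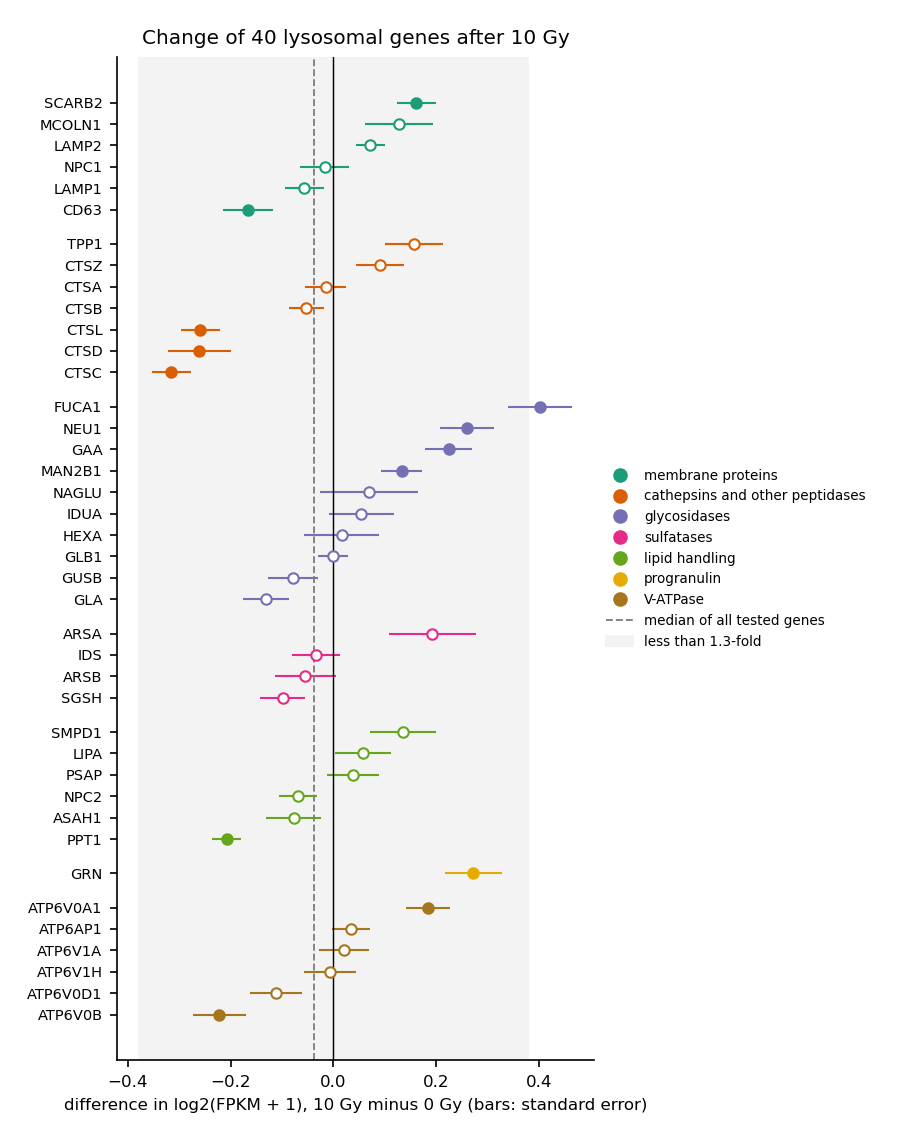
Difference in log2(FPKM + 1) between 10 Gy and 0 Gy for the 40 tested members, with the standard error from limma over 3 libraries of each dose. Filled points have an adjusted p under 0.05, the dashed line is the median of 12128 genes at -0.04 and grey marks changes under 1.3-fold. FUCA1 (0.40) lies farthest right and CTSC (-0.32) farthest left.

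The glycosidases, which remove sugars from glycoproteins, glycolipids and glycogen, gave 4 rises and 0 falls among 10 tested members, against 11.9% of all genes called higher and 23.7% lower. FUCA1 (alpha-L-fucosidase, chr1:23845077-23868294) had 11.4, 13.5 and 11.5 FPKM at 0 Gy and 16.0, 16.5 and 16.5 FPKM at 10 Gy. All 3 irradiated libraries lay above all 3 controls. The ratio of means was 1.34 and the log2 difference 0.40 ± 0.06 (SE), with an adjusted p of 0.00369 (limma).

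NEU1 (the sialidase neuraminidase 1, chr6:31857659-31862906) had 16.8, 14.7 and 15.7 FPKM at 0 Gy and 18.7, 18.5 and 19.8 FPKM at 10 Gy. The doses did not overlap, and the log2 difference was 0.26 ± 0.05 (SE; limma adjusted p = 0.00922). GAA (acid alpha-glucosidase, which degrades glycogen, chr17:80101556-80119879) had 13.8, 12.3 and 12.4 FPKM at 0 Gy and 15.3, 15.2 and 15.0 FPKM at 10 Gy. It rose by a log2 difference of 0.22 ± 0.05 (SE; limma adjusted p = 0.00975), again with no overlap, in the gene whose promoter window above holds 2 copies of the 10-base form.

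MAN2B1 (lysosomal alpha-mannosidase, chr19:12646511-12666742) had 11.0, 10.6 and 10.0 FPKM at 0 Gy and 11.8, 11.6 and 11.5 FPKM at 10 Gy. Its log2 difference of 0.13 ± 0.04 (SE; limma adjusted p = 0.0396) was the smallest of the 7 rises. This call was lost when control library 2 or 3, or any irradiated library, was left out, with an adjusted p of up to 0.122. Of its exon bases, 21.2% are also annotated to 2 other genes on the same strand, which stood at 0.0370 and 0 FPKM at 0 Gy.

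GLA (alpha-galactosidase A), the highest glycosidase, had 31.3, 28.8 and 28.2 FPKM at 0 Gy and 26.3, 26.4 and 27.6 FPKM at 10 Gy. Its doses did not overlap, yet the log2 difference of -0.13 ± 0.04 (SE) missed the threshold (limma adjusted p = 0.0539). MANBA, the lowest, had 0.777, 0.872 and 0.834 FPKM at 10 Gy and was not tested. The others that did not pass were NAGLU at 0.07, IDUA at 0.05, HEXA at 0.02, GLB1 at 0.00 and GUSB at -0.08 on the log2 scale. For GUSB (beta-glucuronidase), reads could have been split with pseudogenes, of which GUSBP1 had 1.58 FPKM at 0 Gy and 1.75 FPKM at 10 Gy. FUCA1 and CTSL have annotated pseudogenes with at most 2 reads in any library.

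Progranulin (GRN, chr17:44345086-44353102), a precursor cleaved in lysosomes into granulins, had 105, 95.4 and 90.6 FPKM at 0 Gy and 116, 120.0 and 115 FPKM at 10 Gy. The doses did not overlap, with a ratio of means of 1.21 and a log2 difference of 0.27 ± 0.05 (SE; limma adjusted p = 0.00925). Of the 7 members above 50 FPKM at 0 Gy, GRN was the only one called higher on the deposited values. FUCA1, GRN, NEU1 and GAA kept their call under all 16 alternatives, including the 6 fits that leave out 1 library each.

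The cathepsins and other peptidases, which degrade proteins, gave 3 falls and 0 rises among 7 members, against 23.7% of all genes called lower and 11.9% higher. This balance belonged to the deposited values and to median-of-ratios scaling. There were 2 rises and 0 falls with upper-quartile scaling, 3 and 2 with TPM and 2 and 3 with limma-voom. Over all genes, 32.35% were called higher and 1.01% lower with upper-quartile scaling. The same shares were 25.67% and 8.79% with TPM, and 23.45% and 15.53% with limma-voom. CTSC (cathepsin C or dipeptidyl peptidase 1, chr11:88293592-88337787) had 9.96, 9.87 and 10.0 FPKM at 0 Gy and 7.89, 7.47 and 8.05 FPKM at 10 Gy. The controls lay within a narrow band and well above the irradiated libraries. It fell by 0.32 ± 0.04 (SE) on the log2 scale, a ratio of means of 0.784 (limma adjusted p = 0.00152).

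CTSL (cathepsin L, a cysteine endopeptidase, chr9:87725519-87731393) had 39.0, 37.1 and 37.2 FPKM at 0 Gy and 30.2, 31.5 and 32.6 FPKM at 10 Gy. There was no overlap, and the log2 difference was -0.26 ± 0.04 (SE; limma adjusted p = 0.00311). CTSD (chr11:1752752-1764573) had 139, 129.7 and 117 FPKM at 0 Gy and 108, 108 and 104 FPKM at 10 Gy, a log2 difference of -0.26 ± 0.06 (SE; limma adjusted p = 0.0162). The 3 irradiated values were closer together (SD 2.11) than the 3 controls (SD 11.2). Without irradiated library 2 or 3 the adjusted p of CTSD reached up to 0.0540, and with TPM it was 0.101.

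CTSD shares 52.7% of its exon bases with other annotated genes, and 41.7% of its exon bases with a gene on the same strand. The gene on its own strand stood at 0.0941 FPKM and the antisense gene at 1.59 FPKM at 0 Gy, and whether reads were counted by strand was not given in the sources used here. CTSC and CTSL share no exon base with another gene.

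TPP1 (tripeptidyl peptidase 1), the lowest of the peptidases, had 7.49, 8.48 and 7.82 FPKM at 0 Gy and 8.88, 9.48 and 8.50 FPKM at 10 Gy. The doses were apart by a small margin, and the log2 difference of 0.16 ± 0.06 (SE) did not pass (limma adjusted p = 0.0648), though it did with the replicate number as a block (0.0488) and with upper-quartile scaling, TPM and limma-voom (0.00380, 0.0178 and 0.00266). CTSZ, CTSA and CTSB did not pass either, with log2 differences of 0.09, -0.02 and -0.05. CTSZ was called higher with upper-quartile scaling, TPM and limma-voom, CTSA turned to 0.11 and was called with TPM, and CTSB lay above 0 under those 3 settings.

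**Figure D3:**
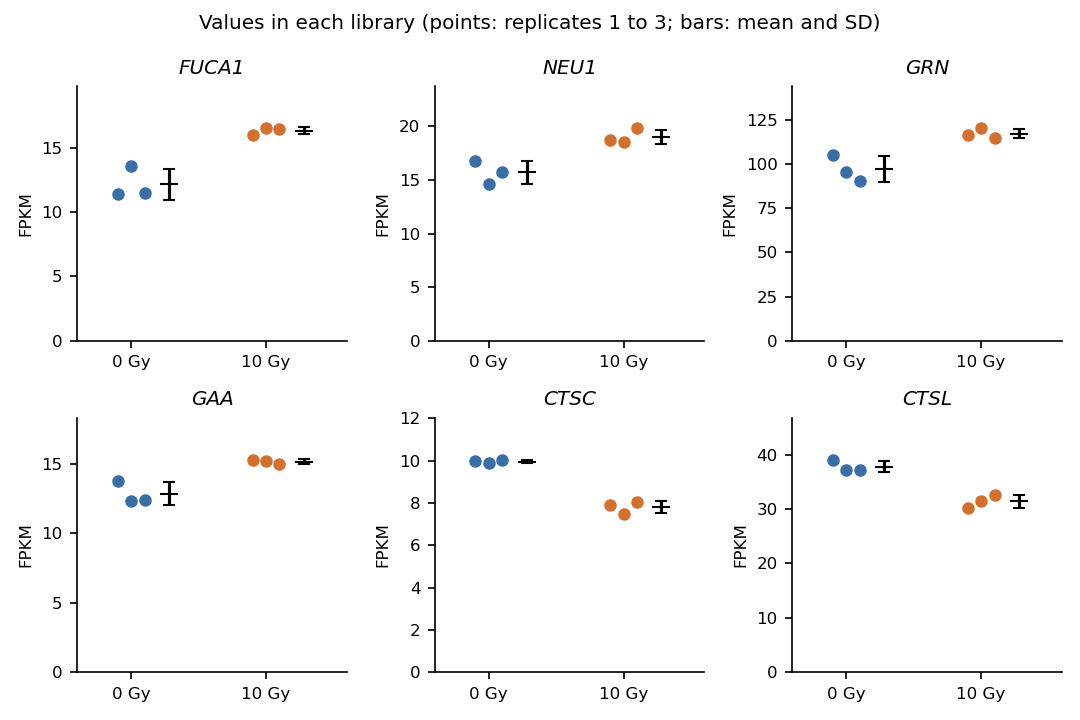
FPKM in each library for FUCA1, NEU1, GRN and GAA, which rose, and CTSC and CTSL, which fell (not called with upper-quartile scaling). Points are replicates 1 to 3 of each dose, bars the mean and SD, and each axis starts at 0. In all 6 panels the 3 irradiated libraries lie apart from the 3 controls, by a ratio of means between 0.784 (CTSC) and 1.34 (FUCA1).

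Among the membrane proteins, the 6 members split between 1 rise, 1 fall and 4 that did not pass. Over all genes 11.9% were called higher and 23.7% lower. SCARB2 (LIMP-2, the receptor that carries glucocerebrosidase to lysosomes, chr4:76158733-76234536) had 7.81, 8.23 and 7.64 FPKM at 0 Gy and 8.80, 9.05 and 8.98 FPKM at 10 Gy. It rose by a log2 difference of 0.16 ± 0.04 (SE; limma adjusted p = 0.0172) with no overlap. Without control library 3 or irradiated library 2 or 3, its adjusted p was up to 0.0642.

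CD63 (chr12:55725323-55729707) had 169, 161 and 170.0 FPKM at 10 Gy, each below the lowest control value of 180.4 FPKM. The log2 difference was -0.17 ± 0.05 (SE; limma adjusted p = 0.0335), but it was 0.09 with upper-quartile scaling. The call was also lost without any 1 of the irradiated libraries, with an adjusted p of up to 0.120, and with TPM (0.440) and limma-voom (0.0684).

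LAMP1 and LAMP2, the most abundant glycoproteins of the lysosomal membrane, had 53.1 ± 2.38 and 42.7 ± 0.311 FPKM at 0 Gy (SD, n = 3). At 10 Gy they were at 51.0 ± 0.309 and 44.9 ± 0.771 FPKM. Neither difference passed (log2 -0.06 and 0.07), though LAMP2 was called higher with upper-quartile scaling, TPM and limma-voom (adjusted p of 0.0121, 0.00220 and 0.00181), where LAMP1 lay above 0. NPC1, the cholesterol exporter, differed by -0.02 and MCOLN1 by 0.13, and neither passed. MCOLN1 was called higher under the same 3 settings (0.0121, 0.0184 and 0.0194).

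None of the 4 sulfatases, which remove sulfate from glycosaminoglycans and sulfatides, passed the test on the deposited values, against 35.6% of all tested genes. Of the 4, 3 were below 0 and ARSA above. IDS (iduronate 2-sulfatase), the highest, had 25.3, 27.8 and 27.8 FPKM at 0 Gy and 25.3, 27.2 and 26.5 FPKM at 10 Gy. ARSA, the lowest, had 2.54, 2.68 and 2.47 FPKM at 0 Gy and 3.58, 3.03 and 2.66 FPKM at 10 Gy. Its irradiated libraries differed widely among themselves, and the log2 difference of 0.19 ± 0.08 (SE) had an adjusted p of 0.117 (limma). SGSH (N-sulfoglucosamine sulfohydrolase) and ARSB (arylsulfatase B) differed by -0.10 and -0.05.

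Among the 6 genes of lipid handling only PPT1 passed on the deposited values, against 35.6% of all tested genes. PPT1 (palmitoyl-protein thioesterase 1, chr1:40071461-40097727) had 27.3, 26.3 and 26.8 FPKM at 0 Gy and 23.0, 23.1 and 23.1 FPKM at 10 Gy. Both groups were tight, and the log2 difference was -0.21 ± 0.03 (SE; limma adjusted p = 0.00242), though 0.04 with upper-quartile scaling and not called with TPM (0.0615). It shares 23.4% of its exon bases with CAP1 on the opposite strand, which had 52.1 FPKM at 0 Gy and 50.1 FPKM at 10 Gy and did not pass.

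PSAP, the highest member, had 271, 278 and 279 FPKM at 10 Gy, inside the range of the controls, with a log2 difference of 0.04 ± 0.05 (SE; limma adjusted p = 0.586). ASAH1 (acid ceramidase), the lowest of this class, had 4.50, 4.30 and 3.91 FPKM at 0 Gy and 3.90, 3.93 and 4.05 FPKM at 10 Gy. Neither gene passed the test. NPC2, the soluble cholesterol carrier, differed by -0.07, SMPD1 (acid sphingomyelinase) by 0.14 and LIPA (lysosomal acid lipase) by 0.06, and none of the 3 passed, though SMPD1 and LIPA were called higher with upper-quartile scaling, TPM and limma-voom, as was PSAP.

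The 6 V-ATPase members gave 1 rise and 1 fall, against 11.9% of all genes called higher and 23.7% lower. Both were in the membrane-embedded sector through which protons pass. ATP6V0A1 (subunit a1, chr17:42458844-42522611), the lowest of the 6, had 5.24, 5.19 and 4.89 FPKM at 0 Gy and 6.09, 5.93 and 5.78 FPKM at 10 Gy. It rose by a log2 difference of 0.18 ± 0.04 (SE; limma adjusted p = 0.0155), with an adjusted p of up to 0.0620 without irradiated library 1 or 2.

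ATP6V0B (a proteolipid subunit, chr1:43974487-43978295) had 31.9, 29.3 and 27.6 FPKM at 0 Gy and 25.4, 25.3 and 24.9 FPKM at 10 Gy. Again the doses did not overlap, and the log2 difference was -0.22 ± 0.05 (SE; limma adjusted p = 0.0154), though 0.03 with upper-quartile scaling and not called with TPM (0.136). Without irradiated library 2 or 3 its adjusted p was 0.0506 or 0.0501.

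ATP6AP1 (an accessory protein of pump assembly), the highest V-ATPase member, had 32.6, 32.7 and 30.9 FPKM at 0 Gy and 33.1, 31.8 and 33.7 FPKM at 10 Gy. The doses overlapped, and ATP6AP1 was called higher only with upper-quartile scaling, TPM and limma-voom. ATP6V1A and ATP6V1H, subunits of the sector that hydrolyses ATP, differed by 0.02 and -0.01, and ATP6V0D1 by -0.11, and none of these passed.

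Across the 27 members that did not pass on the deposited values, log2 differences ran from -0.13 (GLA) to 0.19 (ARSA) with standard errors between 0.03 and 0.10. Those differences are smaller than the 1.3-fold mark, and missing the threshold does not show that a gene was unchanged.

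**Figure D4:**
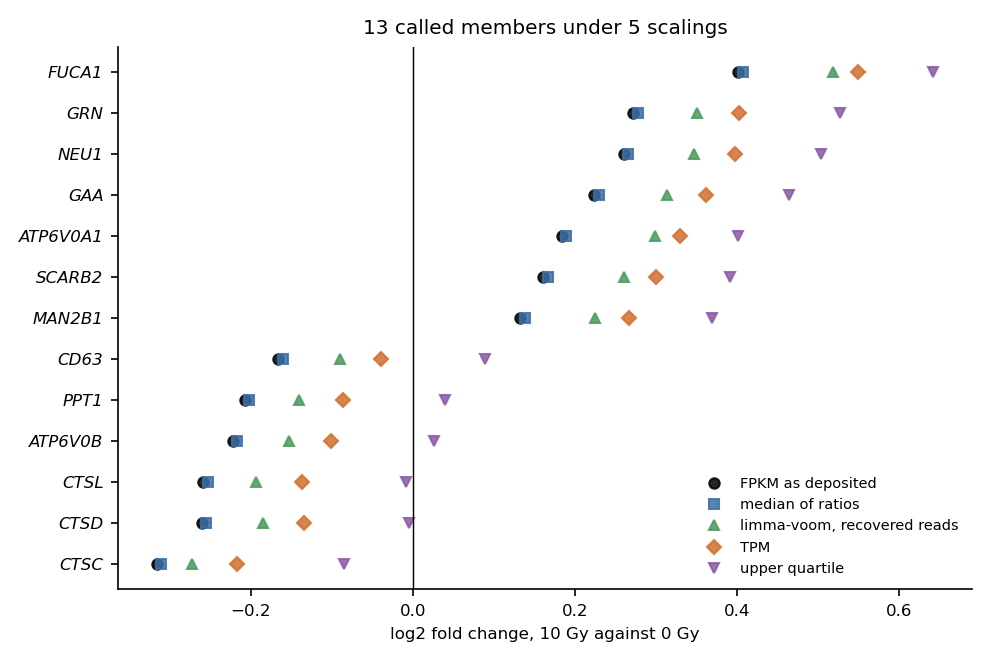
Log2 fold change after 10 Gy of the 13 members called on the deposited FPKM, under 5 scalings or inputs. Every point of the 7 members that rose lies above 0. Of the 6 members that fell, CD63, PPT1 and ATP6V0B cross 0 with upper-quartile scaling (triangles pointing down) and CTSC stays farthest below at -0.08.

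The summed level of all 41 members did not separate the doses on the FPKM scale. It was 1516, 1425 and 1395 FPKM at 0 Gy and 1427, 1425 and 1435 FPKM at 10 Gy. As a share of all FPKM the doses did not overlap: 0.545%, 0.526% and 0.517% at 0 Gy against 0.577%, 0.577% and 0.563% at 10 Gy. As a share of recovered reads, it ran from 0.571% to 0.601% at 0 Gy and from 0.608% to 0.611% at 10 Gy. The sum of all FPKM, the denominator of the first share, was lower in every irradiated library than in every control.

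Gene length was set beside the change as a description. Spearman's rho between listed length and log2 difference was 0.179 over 12128 genes, which share libraries and annotation and are not independent, and -0.06 over the 40 members. Its part in single results was not tested.

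Other lysosomal genes were counted from 5 lists with 126 genes, of which 109 were tested and 33 (30.3%) called, 16 higher and 17 lower. Of all tested genes 35.6% were called. The other soluble enzymes and activators gave 8 rises and 0 falls among 31 tested genes, against 11.9% of all genes called higher and 23.7% lower. PLD3, a lysosomal exonuclease, rose from 25.9 ± 1.48 to 32.9 ± 0.408 FPKM (SD, n = 3), a log2 difference of 0.33 ± 0.04 (SE). CTSV (cathepsin V) was at 0.826 ± 0.156 FPKM at 0 Gy and 1.39 ± 0.110 FPKM at 10 Gy. It is among the 8 rises but reached the mean of 1 FPKM only through the irradiated libraries.

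Other lysosomal membrane proteins gave 4 rises and 2 falls among 26, and 14 and 0 with upper-quartile scaling. Over all genes 11.9% were called higher and 23.7% lower, and 32.35% and 1.01% with upper-quartile scaling. TPCN1, a cation channel of endosomes and lysosomes, had 11.3, 11.4 and 12.0 FPKM at 0 Gy and 16.1, 17.0 and 16.1 FPKM at 10 Gy. Its log2 difference of 0.47 ± 0.04 (SE; limma adjusted p = 0.000593) was larger than that of any tested member on the deposited scale. SIDT2, a multi-pass lysosomal membrane protein, rose by 0.26. SLC15A4, a peptide and histidine transporter, fell by 0.22 and CD164, a sialomucin, by 0.09, but both were above 0 with upper-quartile scaling and CD164 also with TPM.

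The other V-ATPase subunits gave 0 rises and 2 falls among 12 tested genes, and 5 rises and 0 falls with upper-quartile scaling. The shares over all genes were 11.9% higher and 23.7% lower, and 32.35% and 1.01% with upper-quartile scaling. ATP6V0E1 fell by 0.21 from 79.6 ± 2.40 to 68.8 ± 2.28 FPKM (SD, n = 3) and ATP6V0E2 by 0.22. Both are small subunits of the membrane sector, as ATP6V0B is of its proteolipid ring, and both were above 0 with upper-quartile scaling.

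Genes that sort enzymes to lysosomes gave 3 rises and 5 falls among 19, and 9 and 0 with upper-quartile scaling. Among all genes 11.9% were called higher and 23.7% lower, and 32.35% and 1.01% with upper-quartile scaling. SORT1 (sortilin, a sorting receptor) rose by 0.19 and IGF2R, the cation-independent mannose-6-phosphate receptor, by 0.17. CLN6, an endoplasmic reticulum protein needed for enzyme export, fell by 0.30 and AP1M1, a subunit of the AP-1 clathrin adaptor, by 0.25. M6PR, the cation-dependent mannose-6-phosphate receptor, was looked at after its values were seen: it fell by 0.18 while IGF2R rose, and it was at 0.07 with upper-quartile scaling.

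Regulators of lysosomal genes and of the kinase complex mTORC1 at the lysosome gave 1 rise and 8 falls among 21. Over all genes 11.9% were called higher and 23.7% lower. TSC2, which restrains mTORC1, rose by 0.23. MLST8, a subunit of mTORC1, fell by 0.35. TFE3 had 27.9, 27.9 and 27.6 FPKM at 0 Gy and 22.9, 22.7 and 24.3 FPKM at 10 Gy. Its log2 difference of -0.25 ± 0.03 (SE; limma adjusted p = 0.00261) came to 0.00 with upper-quartile scaling. With that scaling this list gave 6 rises and 0 falls, against 32.35% of all genes called higher and 1.01% lower. The list median was then 0.10, below the 0.18 of all genes. TFEB, a relative of TFE3, was under 1 FPKM in every library and was not tested. It averaged 0.552 FPKM at 0 Gy and 0.724 FPKM at 10 Gy, without overlap, on 50 to 124 reads. TFEC was under 1 FPKM too. MITF, on the same list, differed by -0.09 and was not called (limma adjusted p = 0.2445). When 1 library at a time was left out, SIDT2 and CD164 kept their call in 1 of 6 fits, IGF2R and ATP6V0E2 in 2, CTSV in 5 and the other companion genes named here in all 6.

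**Figure D5:**
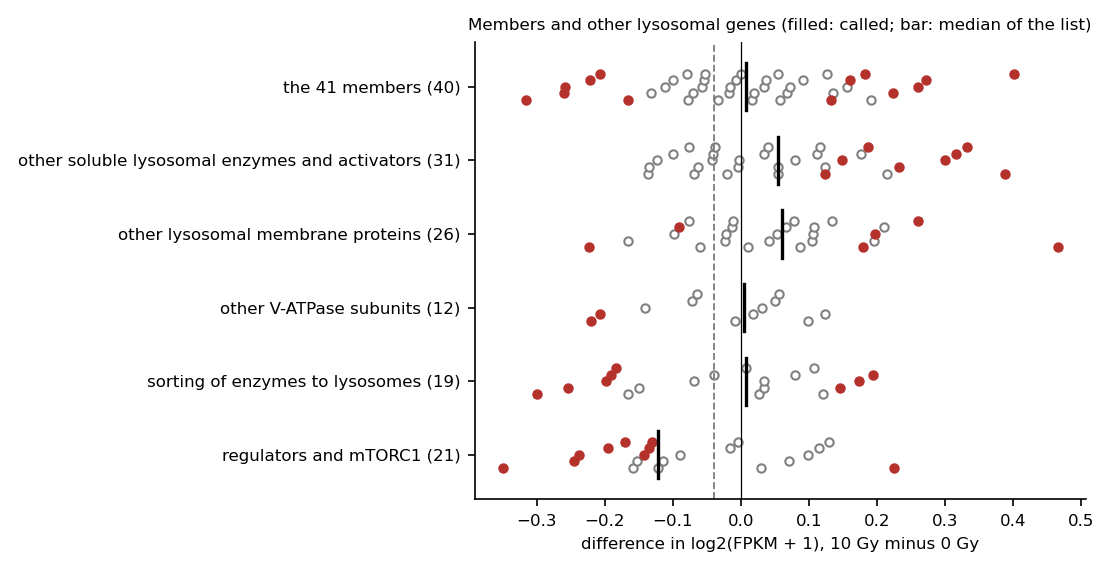
Difference in log2(FPKM + 1) between 10 Gy and 0 Gy for the members and for 5 lists of other lysosomal genes, with the number tested in brackets. Filled points have an adjusted p under 0.05, black bars are list medians and the dashed line is the median of all tested genes at -0.04. The regulators have the lowest median (-0.12) and the other membrane proteins the highest (0.06).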

How the data were processed

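Libraries were grouped by treatment as in the labels, 3 at 0 Gy and 3 at 10 Gy. All value columns of the table belong to these 6 libraries. The authors deposited FPKM values per gene. The submitters' processing notes name HISAT2 and GRCh38, and the counting program and its strand setting are not given in the sources used here. Coordinates equal those of GENCODE 29 for 58594 of 58735 genes, and each member's deposited length is the union of its exons there. FPKM multiplied by length and implied depth gave whole reads for 100% of values above 0 (tolerance 0.05 read), which set the depth and counting precision behind each value.

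Expression was compared with limma 3.58.1 in R 4.3.3 on log2(FPKM + 1), with an intensity trend, over the 12128 genes that averaged 1 FPKM or more. The log2 differences therefore understate the change of low genes. Calls had a Benjamini-Hochberg adjusted p under 0.05, with 1.3-fold as the second mark. The procedure was tested on simulated reads that were given no shift in scale between doses, so that test cannot decide between the scalings. The members and lists were chosen with earlier results of these data known. Values were given for the highest and lowest member of each role at 0 Gy, for up to 8 called members in each direction, and for up to 2 called genes in each direction from each companion list. Alternatives changed the pseudocount, filter, scaling, eBayes settings, input, block and libraries. Tables were handled in Python 3.11.15 with pandas 2.3.3, and figures drawn with matplotlib 3.10.9. Replicate numbers did not pair the libraries. The 3 correlations of same-numbered libraries were -0.0405, -0.0349 and -0.101.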

Additional observations from a re-analysis of the deposited data

How the results depend on the processing

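Upper-quartile scaling gave 3923 genes called higher, 122 lower and 1699 at 1.3-fold or more, with 20 members called, 20 higher, 0 lower and 9 at 1.3-fold. TPM gave 3113, 1066 and 1221 genes, with 20 members called, 18 higher, 2 lower and 3 at 1.3-fold. Limma-voom gave 2844, 1884 and 1196 genes, with 21 members called and 16 higher. Without a filter on low values, 31650 genes were tested, and 1815 genes and 3 members were called lower. In either direction 9.20% of genes and 21.95% of members were called there. With a mean of at least 5 FPKM, 7262 genes were tested, of which 874 were called higher and 408 at 1.3-fold. The shares called were then 49.68% of genes and 42.86% of members. With a pseudocount of 0.1, 1059 genes were called at 1.3-fold. Among members called on the deposited values or under the alternative, the sign turned with upper-quartile scaling for CD63 (0.0894), PPT1 (0.0399), ATP6V0B (0.0261), GLB1 (0.24) and ATP6V1H (0.23), and with TPM for GLB1 (0.13) and CTSA (0.11). The sign also turned for 12 members with upper-quartile scaling and 11 with TPM that were called in neither. In these data upper-quartile scaling moved the median gene up by 0.22 and TPM by 0.12.

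Leaving out 1 library at a time gave 2660 to 3993 genes called, 852 to 1393 higher, 1808 to 2630 lower and 589 to 781 at 1.3-fold. Members called ranged from 7 to 14, higher from 4 to 8, lower from 3 to 7 and at 1.3-fold from 0 to 1. The lowest count of members, 7 (4 higher, 3 lower), came without irradiated library 2, where 17.5% of members and 21.9% of genes were called. The highest, 14, came without control library 1, where 35% of members and 32.9% of genes were called. Without irradiated library 3, 3 members were lower, and without irradiated library 1, 2705 genes were called. No member reached 1.3-fold without control library 1 or 3. The causes were not tested.

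Replicate numbers did not pair the libraries. With the replicate block 3503 genes and 13 members (7 higher, 6 lower) were called, with MAN2B1 lost (adjusted p = 0.0576) and TPP1 gained (0.0488). The principal transcript length, chosen after seeing the data, moved the control level of 40 of 41 members. Calls of changes near 1.3-fold rest on 3 libraries of each dose and their depth.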

Other observations

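Of 20 annotated pseudogenes named after CTSL, FUCA1, GUSB and IDS, 12 had at least 1 read in a library and 1, GUSBP1, was tested and not called. Exon bases are shared with another annotated gene for 21 of the 41 members and exceed 10% of the exon bases for 11. Among opposite-strand neighbours, IFIT2, an interferon-stimulated gene overlapping 4.07% of the exon bases of LIPA together with an antisense gene, had 26.6 FPKM at 0 Gy and 32.5 FPKM at 10 Gy (log2 difference 0.28, limma adjusted p = 0.00635). LIPA itself differed by 0.06. ISCA2, which overlaps NPC2, differed by -0.15 (adjusted p = 0.0195) and NPC2 by -0.07. SLC26A11, which overlaps SGSH, differed by 0.19 (adjusted p = 0.0151) and SGSH by -0.10. The part of these neighbours in the members' values was not tested.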
